A study of Mus musculus with 8 samples.

Results

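The Gadd45 family was examined in RNA from mouse liver, measured on 1-colour Agilent expression arrays in 8 samples. The family has 3 members, Gadd45a, Gadd45b and Gadd45g, and each was matched to the array by its gene name, which gave 3 probes out of 55681 and 3 genes out of the 24000 that were measured well enough to compare. The 3 genes were picked on their measured differences between the groups, Gadd45a and Gadd45b because they were higher in AdLeXis and Gadd45g because it was lower, so these differences are described below and were not tested. Livers came from bl6 mice aged 12 weeks on a chow diet, and RNA was prepared on day 6. The 4 samples of one group carried the treatment label AdLeXis, for an adenovirus carrying the long non-coding RNA LeXis, and the 4 samples of the other group carried the label AdGFP, for the control virus. The treatment text of every sample names other vectors, a knockdown vector for Raly and its control, and grouping followed the sample labels. The control livers also received a virus, so no uninfected liver entered the comparison. No label says that each sample is a separate animal, so the spread between arrays may be partly technical.

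Gadd45 proteins are small, acidic nuclear proteins without enzyme activity that act by binding other proteins. They are made in response to DNA damage, growth arrest signals and cytokines, and each can bind and activate the kinase Map3k4 (MTK1), which feeds the p38 and JNK stress kinases. They also bind the cell cycle proteins Cdk1, p21 and PCNA, and have been linked to excision repair and to the removal of DNA methylation. Gadd45a is a classical p53 target. Gadd45b (MyD118) is an early gene of liver growth that restrains the JNK kinase Map2k7, and is induced through the xenobiotic receptor CAR. Gadd45g (CR6) is a cytokine-responsive member.

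The 250 bases before the annotated start of each gene are shown because the members of one family differed in direction here, and so that the motifs each start region holds can be read side by side. They are from RefSeq on build GRCm38.p6, each read 5′ to 3′ on the strand of its gene. Gadd45a is on the minus strand at chr6:67037408-67037657, Gadd45b on the plus strand at chr10:80929841-80930090 and Gadd45g on the plus strand at chr13:51846425-51846674. Capitals mark matches, on either strand, to the CCAAT box (CCAAT), the octamer (ATTTGCAT), the TATA box (TATAAA) and the E-box (CACGTG).
Gadd45a: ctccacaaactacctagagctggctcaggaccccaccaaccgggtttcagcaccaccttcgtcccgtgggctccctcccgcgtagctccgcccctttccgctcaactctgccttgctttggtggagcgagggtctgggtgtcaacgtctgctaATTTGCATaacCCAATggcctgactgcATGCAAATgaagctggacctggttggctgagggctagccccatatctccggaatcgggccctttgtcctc
Gadd45b: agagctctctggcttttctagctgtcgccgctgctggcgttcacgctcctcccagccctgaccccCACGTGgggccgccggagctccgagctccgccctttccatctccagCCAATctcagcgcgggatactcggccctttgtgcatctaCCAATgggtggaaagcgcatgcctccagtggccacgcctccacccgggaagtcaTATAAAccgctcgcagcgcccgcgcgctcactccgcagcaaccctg
Gadd45g: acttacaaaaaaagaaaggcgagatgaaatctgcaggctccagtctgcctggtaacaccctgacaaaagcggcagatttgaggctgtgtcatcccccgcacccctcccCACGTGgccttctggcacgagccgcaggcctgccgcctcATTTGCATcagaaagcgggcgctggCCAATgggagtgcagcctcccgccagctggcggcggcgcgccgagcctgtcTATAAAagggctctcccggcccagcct

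All 3 windows held the CCAAT box, which 33.8% of the 32851 promoter windows of the same length also held. The octamer, the letters bound by Oct-1, was in 1.6% of all windows. It occurred in Gadd45a, once on each strand beginning 97 and 70 bases before the start, and once in Gadd45g, beginning 103 bases before it, and was not in the Gadd45b window. Both CCAAT and the octamer were in 0.767% of windows. The TATA box (12.4% of windows) and the E-box (6.02%) were in Gadd45b and Gadd45g and not in Gadd45a. A p53 half-site (7.13% of windows) was found in Gadd45a. The cAMP response element TGACGTCA (1.55%), the NF-kB site (7.25%) and the CArG box (1.47%) had no match in the 3 windows. Such matches are letters in a window, not measured binding.

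The AdLeXis arrays were brighter before any scaling, with a 75th percentile of processed intensity from 381 to 448, against 220 to 297 on the AdGFP arrays. All arrays were on 1 slide, the AdGFP arrays in its first row and the AdLeXis arrays in its second, so slide row and group cannot be told apart. Values below are on the log2 scale after each array was set to a common 75th percentile. The liver markers albumin (Alb) and transthyretin (Ttr), and all 10 others of the 12 hepatocyte markers, were well above background on every array. In bulk liver, fewer cells of a type and less RNA per cell cannot be told apart.

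Gadd45a, the damage-induced member, was measured by 1 probe at chr6:66985376-66985435 (build mm9, minus strand). Its scaled signal was 5.83, 6.37, 6.23 and 6.45 in AdGFP replicates 1 to 4, and 6.80, 6.59, 7.04 and 7.19 in AdLeXis replicates 1 to 4. Every AdLeXis array was above every AdGFP array, with 0.14 between the nearest arrays of the groups, and AdGFP replicate 1 was the lowest. The means of the 4 arrays were 6.22 ± 0.28 (SD) in AdGFP and 6.90 ± 0.27 (SD) in AdLeXis, a difference of 0.69 (SE 0.19), or 1.61-fold. Leaving out AdGFP replicate 1 gave 0.56.

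Gadd45b, the member tied to liver growth, had 1 probe at chr10:80394367-80394426 (mm9, plus strand). AdGFP replicates 1 to 4 read 9.26, 9.53, 9.36 and 9.70, and AdLeXis replicates 1 to 4 read 10.38, 10.69, 10.51 and 11.19. The groups did not overlap and were 0.68 apart at their nearest arrays, and AdLeXis replicate 4 stood highest. The group means were 9.46 ± 0.19 and 10.69 ± 0.36 (SD of 4 arrays), a difference of 1.23 (SE 0.20), or 2.34-fold. Gadd45b thus had the widest difference of the 3 members, and without AdLeXis replicate 4 it was 1.06.

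Gadd45g, the cytokine-responsive member, had 1 probe at chr13:51943733-51943792 (mm9, plus strand). It read 15.76, 15.78, 15.81 and 15.80 in AdGFP replicates 1 to 4, and 15.04, 15.32, 15.11 and 15.04 in AdLeXis replicates 1 to 4. The AdGFP arrays were close together, and every AdLeXis array lay below them by at least 0.43. Over 4 arrays each, AdGFP averaged 15.79 ± 0.02 (SD) and AdLeXis 15.13 ± 0.13 (SD), a difference of -0.66 (SE 0.07), or 1.58-fold lower. The SD of 0.02 in AdGFP compares with a median SD of 0.17 over all genes in that group, which are of all signal levels. Under the other scalings the AdGFP SD of Gadd45g was larger, from 0.045 (quantile) to 0.069 (median).

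The 3 probes were well above background on all 8 arrays, and none was saturated (0 of 8 arrays for each). Over all genes, the 4 AdLeXis arrays lay above the 4 AdGFP arrays for 12.4% of genes and below them for 12.3%. As the members were picked on this comparison, nothing is read from their all falling in those shares.

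**Figure D1:**
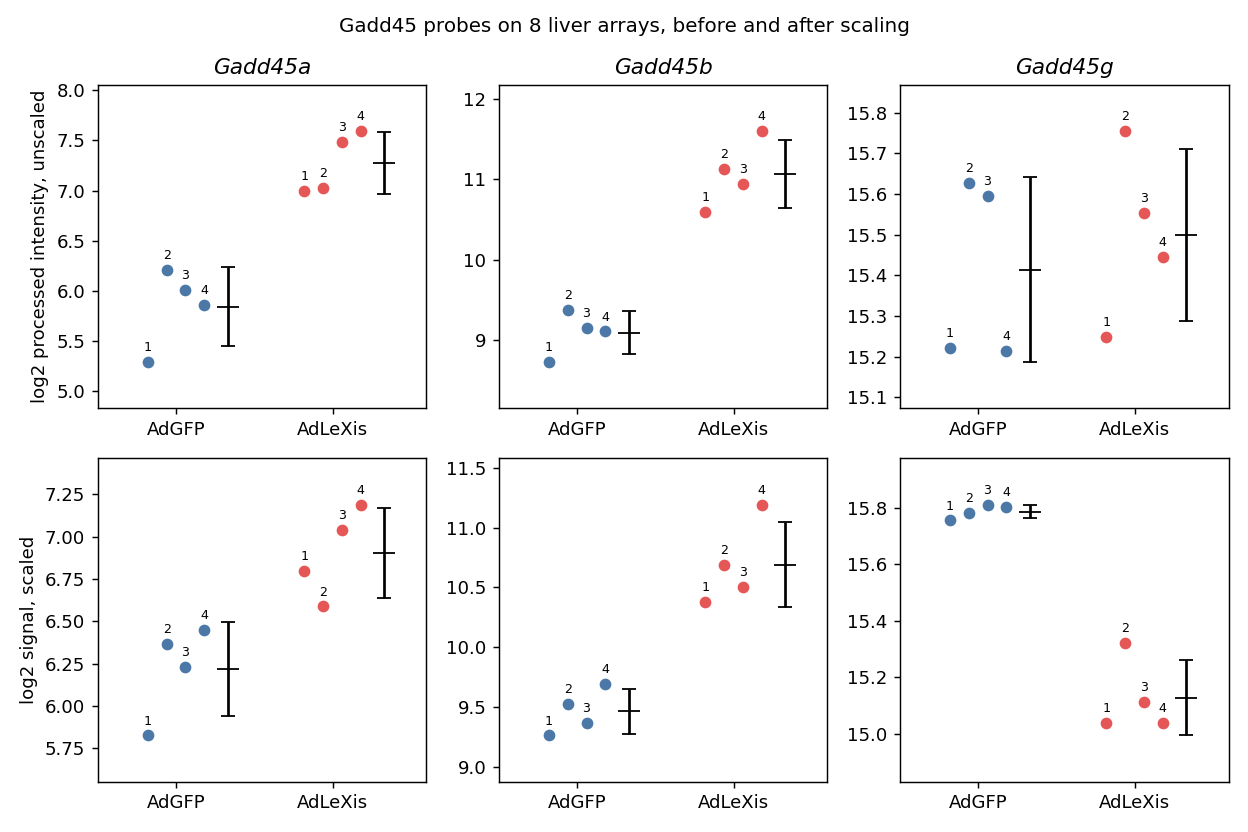
Log2 signal of the 3 Gadd45 probes on each array, before (top) and after (bottom) scaling to a common 75th percentile. Points are single arrays with their replicate number, and bars show mean ± SD of 4 arrays. Scaling takes the same 0.745 off the difference between group means of every gene, and after it Gadd45g lies from 15.76 to 15.81 in AdGFP and from 15.04 to 15.32 in AdLeXis.

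The intensities as deposited carry the brightness of the whole array, which was higher by 0.745 in AdLeXis (difference of the mean log2 75th percentiles). An unscaled difference holds this brightness too, so by itself it gives no direction for a gene. The 75th percentile scaling takes the same 0.745 off every gene, which is an assumption. Other scalings took off other amounts, and the Gadd45g difference was -0.74 under median and -0.51 under quantile scaling. For Gadd45a, the unscaled intensity was 39.2 to 74.1 on AdGFP arrays and 128 to 193 on AdLeXis arrays, and for Gadd45b 424 to 663 against 1540 to 3100. For Gadd45g it was 38200, 50600, 49500 and 38000 on AdGFP replicates 1 to 4, and 38900, 55300, 48100 and 44600 on AdLeXis replicates 1 to 4. These groups overlapped, with a log2 difference of 0.09. The lower Gadd45g in AdLeXis is a decrease relative to the other probes of the same arrays, as the higher Gadd45a and Gadd45b are increases relative to them.

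The rank of a probe within its own array needs no scaling factor. Gadd45g ranked at the 98.9th to 99.0th percentile of probes on AdGFP arrays and at the 98.3rd to 98.6th on AdLeXis arrays, without overlap. Gadd45a went from the 61.4th to 65.2nd percentile to the 66.7th to 70.0th, and Gadd45b from the 81.0th to 83.1st to the 86.4th to 89.6th. Under median, quantile, cyclic loess and normexp scaling the 2 groups of arrays did not overlap for any of the 3 genes, and the difference ran from 0.51 to 0.69 for Gadd45a, from 1.001 to 1.22 for Gadd45b and from -0.74 to -0.51 for Gadd45g. Bright genes were lower in AdLeXis more often than higher: of 478 other genes with a mean between 15 and 16, where Gadd45g lies, 11.1% were called lower and 1.46% higher, with a median of -0.09. The part of signal level in the Gadd45g value was not tested.

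**Figure D2:**
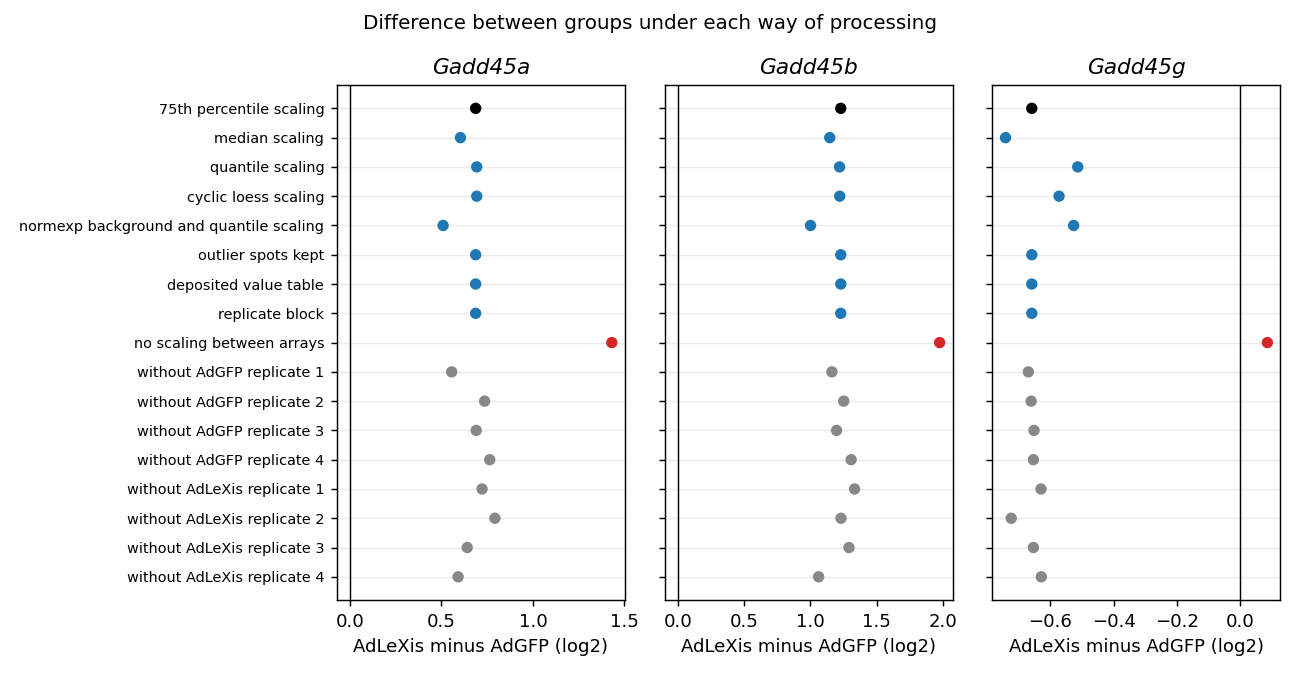
Difference between group means (AdLeXis minus AdGFP, log2) of each member under each way of processing, one row per setting. Black is the 75th percentile scaling, blue other processing, red no scaling and grey the removal of 1 array. Under each scaling Gadd45a and Gadd45b lie above 0 and Gadd45g below it. The red points lie above the black ones by the 0.745 that the 75th percentile scaling takes off every gene, which puts Gadd45g at 0.09.

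Genes that act with the family were taken from 7 lists that hold no member, and were compared with limma over all 24000 genes. By this test 8.72% of all genes were called higher in AdLeXis and 8.77% lower, at an adjusted p under 0.05, and the median difference over all genes was -0.002. That is 2094 genes higher and 2104 lower, and median scaling gave 1157 higher and 2682 lower. The lists were written with earlier results of these data known. Some genes stand in 2 lists, such as Cdkn1a among partners and p53 targets.

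Of 12 genes for binding partners and for cell cycle proteins tied to them, 9 were called higher by limma (75%, against 8.72% of all genes). Called lower were 0 (against 8.77% of all genes; 0 lower at an unadjusted p under 0.05), and the median difference was 0.95. Among the 9, Brca1 was well above background on 0 of 4 AdGFP arrays and on all AdLeXis arrays. It passed the probe filter only through the group where it was high, so nothing is read from its call. Cyclin B2 (Ccnb2) rose by 1.45 (SE 0.12, limma adjusted p = 4.23e-04), and cyclin B1 (Ccnb1), the partner of Cdk1, by 1.48 (SE 0.13, limma adjusted p = 6.33e-04). Cdkn1a, which encodes p21, rose from 10.74 ± 0.24 to 12.34 ± 0.30 (SD of 4 arrays, limma adjusted p = 0.00135), and its kept probes gave 0.681, 1.596 and 2.305. The mitotic kinase Aurka, which Gadd45a can inhibit, rose by 1.18 (SE 0.13, limma adjusted p = 0.00136).

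Cdk1, a mitotic kinase that Gadd45 proteins bind, rose by 1.099 (SE 0.26, limma adjusted p = 0.0233). Its probe was dim, well above background on 2 of 4 AdGFP arrays, and its other kept probe gave 2.35. Under normexp scaling Cdk1 rose by 0.26. Pcna, the replication clamp, rose by 0.40 (SE 0.10, limma adjusted p = 0.0290), and by 0.69 under normexp scaling. The Cdk1 call was lost on dropping any one of AdGFP arrays 1 and 3 and AdLeXis arrays 3 and 4, and the Pcna call on dropping any one of AdGFP arrays 1, 3 and 4 and AdLeXis arrays 2 and 4, and under median scaling. The count of 9 became 4 without AdLeXis replicate 4. Map3k4, the kinase that all family members bind, gave 0.15 (SE 0.09, limma adjusted p = 0.278), and Gadd45gip1, which encodes a protein that binds Gadd45 proteins, gave 0.04 (SE 0.11, limma adjusted p = 0.866). The third gene not called was the binding partner Npm1, nucleophosmin, with -0.01 (limma adjusted p = 0.987), named after its value was seen.

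In the stress kinase cascade downstream of the family, 2 of 19 genes tested were called higher (10.5%, against 8.72% of all genes) and 1 lower (5.26%, against 8.77%), with a median of 0.03. These shares are near those of all genes and are no result about the cascade. The JNK kinase Map2k7, which Gadd45b restrains, averaged 6.98 ± 0.14 on AdGFP arrays and 7.49 ± 0.44 on AdLeXis arrays (SD of 4 arrays, limma adjusted p = 0.128), and was called without AdLeXis replicate 3. The p38 kinase kinase Map2k6 rose by 0.57 (SE 0.16, limma adjusted p = 0.0443). Map3k5, which encodes the stress kinase ASK1, rose by 0.40 (SE 0.11, limma adjusted p = 0.0471), though its other kept probe gave -0.12 and the mean of both 0.14. The phosphatase gene Dusp10, which acts on JNK and p38, fell by 0.60 (SE 0.12, limma adjusted p = 0.0129), and by 0.36 under normexp scaling. The Map2k6 call was lost on dropping any one of arrays 1, 2 and 3 of either group, and the Map3k5 call on dropping any array but AdGFP replicate 3. With array 1 or 2 of either group dropped, 0 genes of the list were called higher by limma, and with any other array dropped 1 was. Dropping AdLeXis replicate 1 gave 2 lower genes.

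Of 23 genes of excision repair and DNA demethylation, 4 were called higher by limma (17.4%, against 8.72% of all genes), with a median of 0.06. Called lower were 0 (1 at an unadjusted p under 0.05). The single-strand DNA binding protein gene Rpa1 rose by 0.94 (SE 0.12, limma adjusted p = 0.00254), DNA ligase 1 (Lig1) by 0.84 (SE 0.13, limma adjusted p = 0.00521) and the damage sensor gene Ddb2 by 0.54 (SE 0.08, limma adjusted p = 0.00448). The maintenance methyltransferase gene Dnmt1 rose by 0.35 (SE 0.10, limma adjusted p = 0.0457), a call that was lost on dropping any array but AdLeXis replicate 3, and under median and normexp scaling (0.17 under the latter). Ercc5 (XPG), the repair nuclease that works with Gadd45a in demethylation, gave 0.12 (SE 0.09, limma adjusted p = 0.399). Under normexp scaling Ercc5 passed, with 0.43 (limma adjusted p = 0.0127). The glycosylase gene Tdg gave 0.30 (SE 0.17, limma adjusted p = 0.263).

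Among 28 transcription factors and signals known to act on Gadd45 genes, 0 were called higher by limma (3 at an unadjusted p under 0.05). Called lower were 3 (10.7%, against 8.77% of all genes), and the median was -0.03. The lower share is near that of all genes and is no result about the list. Atf3 and Egr1 are counted again among the immediate early genes below. The stress factor gene Atf3 fell by 1.101 (SE 0.12, limma adjusted p = 0.00118), Egr1 fell by 1.05 (SE 0.16, limma adjusted p = 0.00477) and Nfkb1 fell by 0.34 (SE 0.09, limma adjusted p = 0.0343). The Nfkb1 call was lost on dropping any array but AdGFP replicate 4. Trp53, which encodes p53, gave -0.09 (SE 0.09, limma adjusted p = 0.550). Foxo3 gave 0.31 (SE 0.17, limma adjusted p = 0.250) and Stat3 gave -0.10 (SE 0.13, limma adjusted p = 0.656). Nr1i3, the CAR gene, gave -0.38 (SE 0.13, limma adjusted p = 0.0754). It was called lower under median scaling, and on dropping AdLeXis replicate 1. The higher count was 2 without AdLeXis replicate 1, and 4 under normexp scaling.

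Targets of p53, the regulator of Gadd45a, had 11 of 23 called higher (47.8%, against 8.72% of all genes), with a median of 0.41. Called lower were 2 (8.7%, against 8.77%), a share near that of all genes, and 10 were not called. The lower genes were Plk3, with -0.88 (SE 0.12, limma adjusted p = 0.003), and Btg2, with -0.44 (SE 0.12, limma adjusted p = 0.0353). Btg2 is counted again among the immediate early genes below. Phlda3, an inhibitor of Akt signalling, rose from 8.88 ± 0.12 to 10.85 ± 0.21 (SD of 4 arrays, limma adjusted p = 1.83e-04), and cyclin G1 (Ccng1) by 1.20 (SE 0.11, limma adjusted p = 6.76e-04). Eda2r, a receptor of the TNF receptor family, was well above background on 0 of 4 AdGFP arrays. It passed the probe filter only through the 4 AdLeXis arrays, where it was high, so nothing is read from its call among the 11. Its measured difference was 3.045 (SE 0.26, limma adjusted p = 5.12e-04). With AdGFP values below the lowest signal above background on each array raised to it, Eda2r was 7.16-fold higher in AdLeXis. That floor is the lowest over all probes, so the fold is not a lower bound for this dim probe. Under normexp scaling, which adds an offset to the signal, the Eda2r difference was 0.40 (limma adjusted p = 0.00881). Dropping array 1, 3 or 4 of either group left 1 lower gene.

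Immediate early genes are the class with which Gadd45b and Gadd45g are often induced. Of 26 tested, 18 were called lower by limma (69.2%, against 8.77% of all genes), with a median of -0.58, and 8 were not called. Called higher were 0 (against 8.72% of all genes; 0 higher at an unadjusted p under 0.05). Egr2 fell by 1.28 (SE 0.11, limma adjusted p = 5.12e-04), and by 0.54 under normexp scaling. Ier3 fell by 1.05 (SE 0.09, limma adjusted p = 5.47e-04) and Ccn1 (Cyr61), a matrix signalling gene, fell by 1.09 (SE 0.11, limma adjusted p = 0.00111).

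The 14 tested CAR targets, genes of the receptor upstream of Gadd45b, had a median of -0.02. Called higher were 2 (14.3%, against 8.72% of all genes) and lower 2 (14.3%, against 8.77%). Counts this small are no result about the list. Cyp2b10, the standard CAR target, read 12.32, 11.07, 11.42 and 11.63 in AdGFP replicates 1 to 4 and 14.28, 14.33, 13.65 and 14.24 in AdLeXis replicates 1 to 4, a difference of 2.51 (SE 0.27, limma adjusted p = 0.00122). Cyp2c55 rose by 1.37 (SE 0.19, limma adjusted p = 0.00319). The heme synthesis gene Alas1 fell by 0.70 (SE 0.09, limma adjusted p = 0.00253), by 0.37 under quantile scaling, and was not called under normexp scaling (-0.33). Cyp2c50 fell by 0.75 (SE 0.21, limma adjusted p = 0.0400), a call lost under quantile and loess scaling and on dropping any AdGFP array or AdLeXis replicate 2. The lower count was 1 in those fits.

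**Figure D3:**
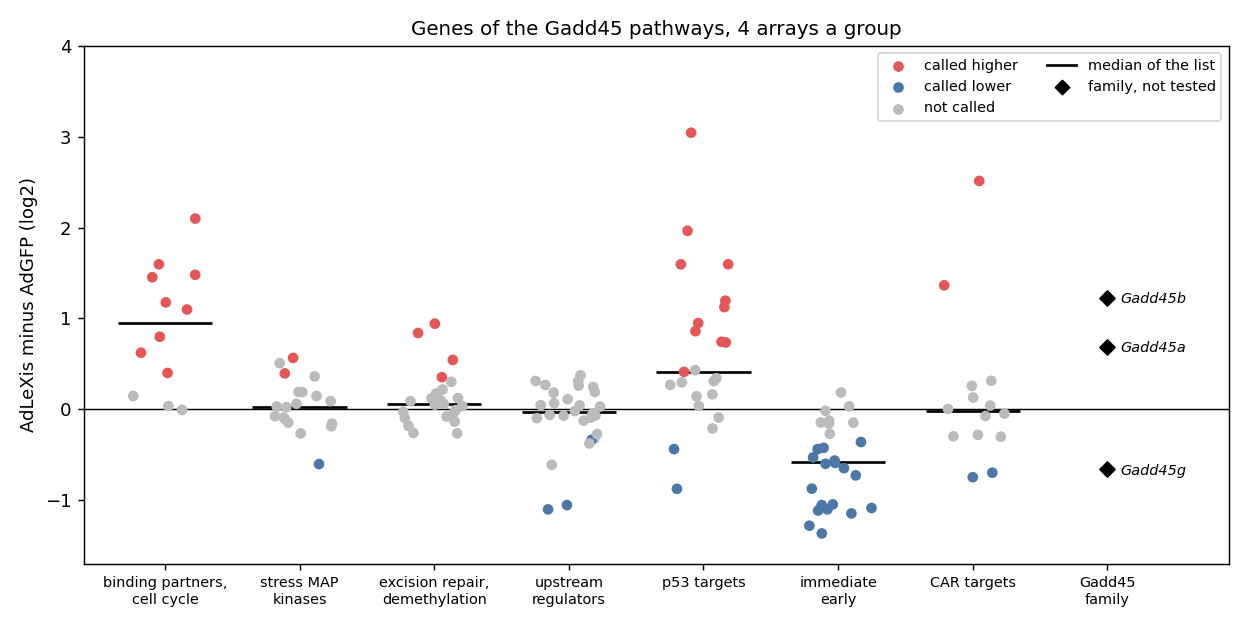
Difference between groups (AdLeXis minus AdGFP, log2) of each tested gene in the 7 lists, with the median of each list as a line, and the 3 family members as diamonds. Red and blue points passed limma at an adjusted p under 0.05, and grey points did not. Partners lie mostly above 0 (median 0.95) and immediate early genes mostly below it (median -0.58).

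Markers of the cell types of liver differed in how many were called, where 8.77% of all genes were called lower and 8.72% higher. Of 13 markers of T and NK cells, 11 were called lower and 0 higher by limma (0 higher adjusted, 1 at an unadjusted p under 0.05), and their mean log2 signal ran from 9.03 to 9.15 on AdGFP arrays and from 8.21 to 8.38 on AdLeXis arrays. For Kupffer cells and macrophages, 3 of 9 markers were called lower and 0 higher by limma (1 higher at an unadjusted p under 0.05), with means from 11.18 to 11.68 and from 10.71 to 11.08. No marker of either list was below background on all arrays. Markers of B cells (0 of 5 called), neutrophils (0 of 5) and endothelium (0 of 6) had no call by limma and none at an unadjusted p under 0.05. Of 12 hepatocyte markers 10 were called lower, with means from 17.43 to 17.54 on AdGFP arrays and from 16.93 to 17.11 on AdLeXis arrays. Their median difference of -0.51 is smaller in size than the 0.745 that the 75th percentile scaling takes off every gene. The part of scaling and signal level in it was not tested. Stellate cell markers had 2 of 6 called lower and bile duct markers 1 of 4, counts too small to be a result about those cells. Lymphocytes and macrophages also express Gadd45b and Gadd45g, and the part of these cells in the Gadd45 values was not tested.

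The genes whose profile over the 8 arrays was nearest to each member were found among 15069 other named genes, by the root mean square difference of values centred on each gene's mean. This likeness includes the difference between groups on which the members were chosen, and a shared pattern over single arrays follows from the choice of these genes. For Gadd45a they were the centrosome gene Cep76 (0.10), the adaptor gene Nck2 (0.12) and Tram2, a gene of protein translocation (0.12). The other kept probe of Nck2 gave a difference of -0.09, against 0.66 on the probe used, and the mean of both gave 0.29, which was not called. For Gadd45b they were Arhgap11a (0.11), a gene of dividing cells, the mitotic kinesin gene Kif20b (0.12) and Resf1 (0.13), a gene of retroelement silencing. For Gadd45g they were galectin 9, Lgals9 (0.07), the surface antigen gene Ly6e (0.08) and the tubulin gene Tuba1a (0.08).

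Their group differences were 0.63, 0.66 and 0.52 for Cep76, Nck2 and Tram2, and 1.201, 1.104 and 1.16 for Arhgap11a, Kif20b and Resf1. They were -0.55, -0.74 and -0.57 for Lgals9, Ly6e and Tuba1a. Under normexp scaling they were 0.38 for Cep76, 0.79 for Tram2 and 0.43 for Arhgap11a, and Tram2 was not called under median scaling.

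**Figure D4:**
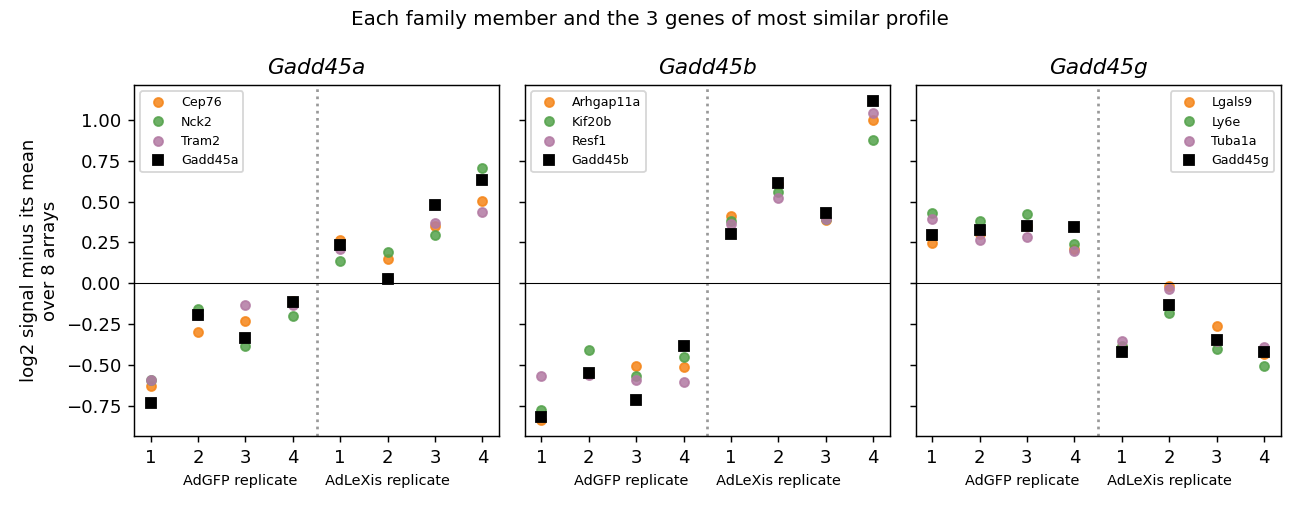
Log2 signal minus its mean over 8 arrays, for each member (black squares) and the 3 genes of nearest profile (circles), by array. The genes were picked for lying close to the member on these arrays, with root mean square differences from 0.07 to 0.13.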

How the data were processed

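Total RNA from 8 liver samples was labelled with Cy3 and hybridised to 1-colour Agilent arrays. Per the file headers, the deposited values are linear spot intensity from version 11.5.1.1 of Agilent Feature Extraction (11.5.1.11 in the submitters' processing notes), with background subtraction and detrending inside an array and no scaling between arrays. Flags for background, saturation and outlier spots (0 or 1 per spot, of no other unit) were used as deposited. The deposited value table is linear, is not centred and equals the processed intensity (largest relative difference 0; column medians 12.7 to 27.7).

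From the log2 intensity the 75th percentile of all non-control spots on that array was subtracted, and the mean of these percentiles was added. Spots of one probe were averaged, without outlier spots. A probe was kept (34450 were) if 4 or more arrays had it well above background and each group had it measured on 2 or more, and the kept probe of highest mean stood for a gene. Names were updated through RefSeq accessions of GRCm38.p6 (27663 probes by accession, 3398 by symbol, 24620 kept). Groups were compared with limma 3.58.1 (lmFit, eBayes) in R 4.3.3, two-sided, with Benjamini-Hochberg adjustment over all genes. Where only adjusted p is given it is from this test. The fit was tested on simulated data. Family members were given mean, SD and the standard error of the difference, with no test.

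The members and gene lists were chosen with earlier results of these data known. Named are the members, fixed partners and regulators, up to 4 called genes of smallest p per list, and the 3 genes of nearest profile. Brca1, Npm1, Plk3 and Btg2 were added after their values were seen. Alternatives were other scalings, probe filters and probe rules, the value table, the replicate block, a variance trend and leaving out each array. Titles number the samples 1 to 4 in both groups, and the number is also the slide column of the array. The deviations of same-numbered samples correlated at 0.00 to 0.12 over genes, and those of other pairs at -0.10 to 0.10. The number was not taken as a pairing, and the replicate block is the fit that includes it. The number of arrays limits the precision.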

Additional observations from a re-analysis of the deposited data

Results flagged for a closer look

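In groups of 4 arrays, the highest or lowest array was compared with the others for 47 of the named genes (94 groups). In 6 groups the gap to the nearest array as a share of the group's range exceeded Dixon's critical value, which chance alone gives in about 1 in 20 groups. No Gadd45 member was among them. In AdGFP, Stat3 stood at 13.55 on replicate 3 against 13.25 to 13.26 on the others, Rpa1 at 11.76 on replicate 4 against 12.18 to 12.25, Tram2 at 9.05 on replicate 1 against 9.45 to 9.51, and Arhgap11a at 4.67 on replicate 1 against 4.958 to 5.002. In AdLeXis, Cyp2b10 stood at 13.65 on replicate 3 against 14.24 to 14.33, and Tuba1a at 9.92 on replicate 2 against 9.563 to 9.602.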

How the results depend on the processing

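All 3 members kept their direction under every scaling and without any 1 array. Gadd45g gave -0.51 under quantile and -0.53 under normexp scaling. With no scaling between arrays, a setting added after the data were seen, Gadd45a gave 1.43, Gadd45b 1.97 and Gadd45g 0.086. These values hold the 0.745 that the 75th percentile scaling takes off every gene. The sign of the Gadd45g difference thus depends on scaling between arrays. The scaled differences without 1 array were 0.56 to 0.79, 1.06 to 1.33 and -0.72 to -0.63. With the replicate block the differences of the members were the same (0.69, 1.23 and -0.66), and 1522 genes were called higher and 1628 lower, against 2094 and 2104. Median scaling gave 1157 higher and 2682 lower. Without 1 array the counts were 1206 to 2057 and 1284 to 2070, lowest without AdLeXis replicate 4. Of the genes named beside the family, the Map3k4 difference turned to -0.024 under normexp scaling, and the Gadd45gip1 difference to -0.047 under median scaling and, without 1 array, ran from -0.033 (AdGFP replicate 1) to 0.117 (AdGFP replicate 3), none of them called. A slide or scan block could not be fitted, as all arrays shared 1 slide and 1 scan.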
